A study of Brassica oleracea var. italica with 5 samples.

Results

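The enzymes that activate sulfate and reduce it to sulfide, and the kinases that divert activated sulfate to sulfation, were followed from germinated seeds through the growth of broccoli sprouts. The set was defined by name and not by expression. It holds the unigenes matched to the *Arabidopsis* genes of the ATP sulfurylases *APS1* to *APS4*, the APS reductases *APR1* to *APR3*, the sulfite reductase *SIR* and the APS kinases *APK1* and *APK2*. All 10 genes had a unigene, 1 each, of 19441 unigenes in all.

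The RNA came from wild-type plants of the broccoli cultivar Qingxiu (*Brassica oleracea* var. *italica*), in which no gene had been altered and no treatment was compared. The 5 tissues were seeds at day 0 after germination, cotyledons at days 3, 7 and 11, and the true leaves that come first, called euphyllas, at day 11. The seeds were labelled as germinated and were not dry, since they had been surface-sterilized in NaClO, rinsed and left for a night on wet filter paper, while the sprouts grew in soil mixture under long days with Hoagland's nutrient solution. Each tissue was 1 library that pooled equal weights of 3 biological replicates, so that no spread between plants could be measured and no p-value is given. A difference between libraries is therefore a difference between those 5 pools. Age and the hour of harvest, which was not given in the sources used here, cannot be told apart.

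Plants take up sulfate and activate it with ATP in a reaction catalysed by ATP sulfurylase, which gives adenosine 5′-phosphosulfate, abbreviated APS like the genes of the enzyme. APS stands at a branch point. APS reductase reduces it to sulfite with electrons from glutathione, and sulfite reductase then reduces sulfite to sulfide with electrons from ferredoxin, so that sulfide can be built into cysteine. On the other branch APS kinase phosphorylates APS to PAPS, the sulfate donor of the sulfotransferases, among them those that finish the core of the glucosinolates, the sulfur-rich defence compounds of the cabbage family. In *Arabidopsis* APS reductase exerts much of the control over the reductive branch, and *APK1* and *APK2* are needed for normal glucosinolate levels. All 10 broccoli unigenes carried the chloroplast term in the deposited annotation, which 3043 unigenes carried in all, and 9 of the 10 carried the term sulfate assimilation, which *SIR* lacked and which stood on 13 unigenes in all.

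Levels rest on mapped reads, which summed to between 6802615 in euphyllas and 10312625 in 11 day cotyledons, and of which the 10 genes held between 4888 in euphyllas and 17352 in 7 day cotyledons. A normalized value is the read count scaled by a constant of its library, and 1 read was worth 0.708 in seeds, 1.02 at 3 days, 1.05 at 7 days and 1.07 at 11 days in cotyledons, and 1.16 in euphyllas. The words called higher and called lower stand for a fold of at least 2 between the normalized values of 2 libraries, with an exact 95% interval that leaves out 1 and a minimum of 20 reads in the pair. The intervals cover counting error only. They are too narrow, since some read pairs were counted more than once, and differences just beyond them may lie within that error. The labels were checked with marker genes. The 5 seed reserve genes with a unigene summed to a normalized value of 2567 in seeds and to between 18.5 and 51.5 in the other libraries, and the 4 photosynthetic genes to 202 in seeds and to between 11332 and 64587 in the other libraries. The 4 genes of leaf primordia and meristems summed to 2256 in euphyllas and to between 464 and 1359 elsewhere, although the meristem gene *STM* had 0 reads in euphyllas and in 11 day cotyledons. Seed coat and endosperm genes, of which 2 had a unigene, summed to between 218 and 512, with the highest sum in euphyllas and not in seeds. Fewer cells of a type and less RNA per cell cannot be told apart in such whole tissues.

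The unigenes were between 1381 bp (*APK1*) and 3564 bp (*APS1*) long. The deposited annotation gives the position of the matched *Arabidopsis* gene, whose genome build is not given in the sources used here. *APS1* matched AT3G22890 on chromosome 3 from 8112723 to 8114992, a gene of 2269 bp with its introns, so that its unigene was longer than the whole gene. *APR2* matched AT1G62180 on chromosome 1 from 22975530 to 22977625, a gene of 2095 bp, and its unigene had 1727 bp. In all, 6 of the 10 unigenes were longer than their gene, against 36.5% of the 17493 matched unigenes with at least 20 reads. Broccoli carries several copies of many *Arabidopsis* genes, and with 1 unigene per *Arabidopsis* gene the reads of such copies cannot be told apart. Reads may also be shared between members of a family, such as *APS1* and *APS3*. How reads that fitted several unigenes were placed is not given in the sources used here.

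Of the 10 genes, 4 had their highest normalized value in 7 day cotyledons (*APS1*, *APS2*, *APR2* and *SIR*), 5 in 11 day cotyledons (*APS3*, *APS4*, *APR1*, *APK1* and *APK2*) and 1 in seeds (*APR3*). None was highest in 3 day cotyledons or in euphyllas. Over 18104 unigenes with enough reads, 29.3% were highest in seeds, and in cotyledons 16.0% were highest at 7 days and 26.6% at 11 days. The smallest shares were those of 3 day cotyledons, with 14.95%, and of euphyllas, with 13.18%. The plot of normalized values by library shows these peaks for each enzyme.

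**Figure D1:**
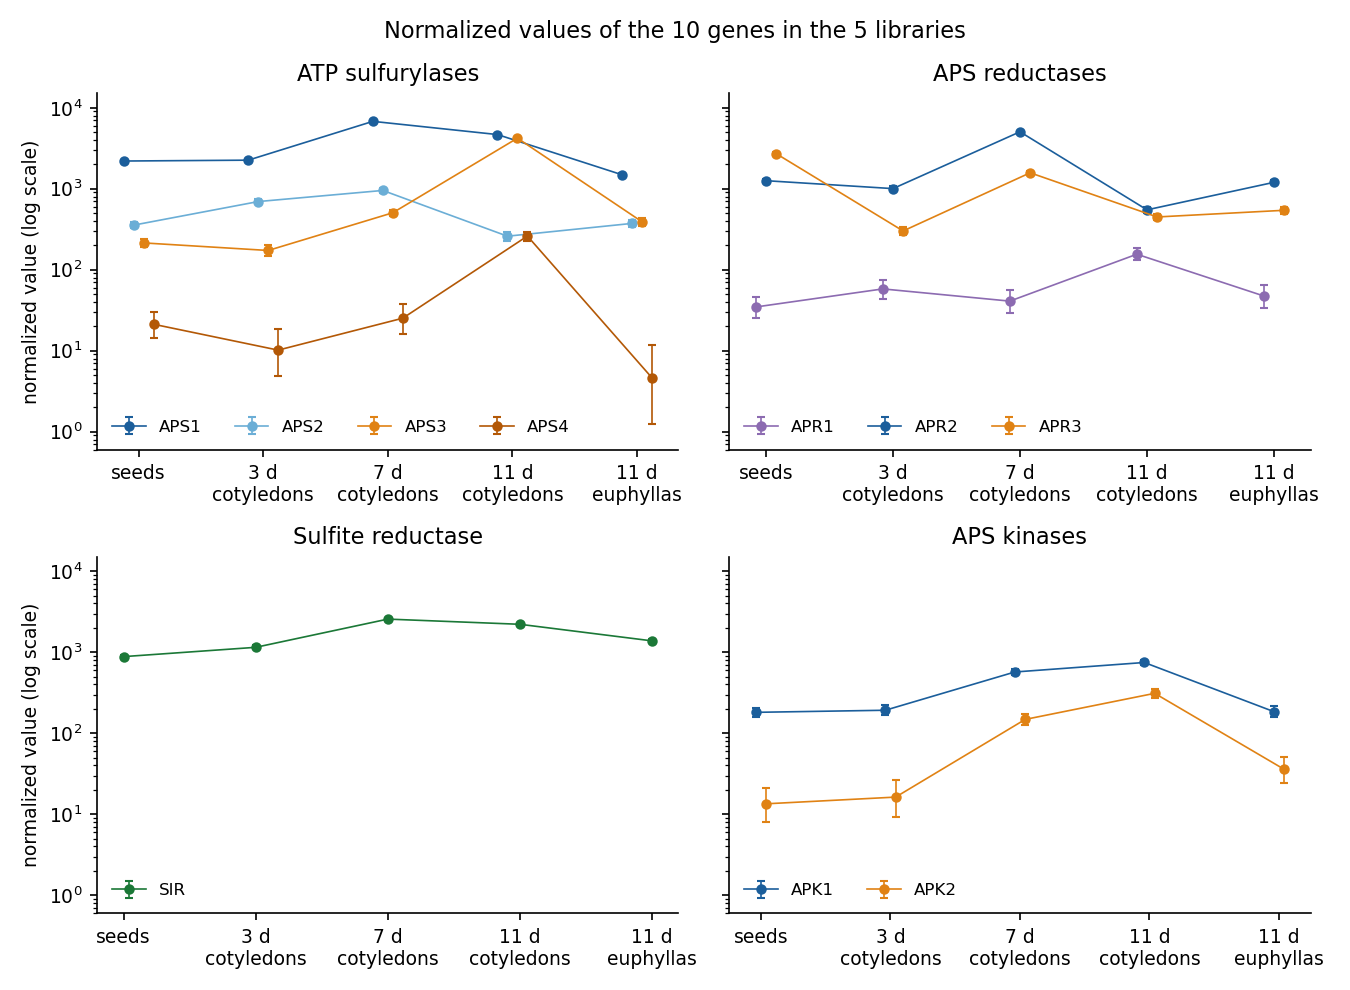
Normalized value (log axis) of each of the 10 genes in the 5 libraries, in 1 panel per enzyme, with exact 95% Poisson intervals that cover counting error only; the lines only join the points of a gene. *APS1* and *APR2* reached 6794 and 5049 in 7 day cotyledons, while *APS3*, *APS4* and both APS kinases peaked in 11 day cotyledons.

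*APS1* (AT3G22890), which per kb of unigene was the most abundant ATP sulfurylase gene in all libraries but 11 day cotyledons, had normalized values of 2199 in seeds, 2254 at 3 days, 6794 at 7 days and 4667 at 11 days in cotyledons, and 1487 in euphyllas. The order ran from 7 day cotyledons through 11 day cotyledons to euphyllas, and only seeds and 3 day cotyledons could not be set apart by counting error (fold 1.02, 95% interval 0.970 to 1.08). *APS1* was called higher from 3 to 7 day cotyledons (3.01-fold, 2.87 to 3.16) and lower from 11 day cotyledons to euphyllas (3.14-fold, 2.95 to 3.34).

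*APS3* (AT4G14680), a close relative of *APS1* that in *Arabidopsis* is, with *APS1* and *APS4*, under control of the microRNA miR395, had normalized values of 214 in seeds, 173 at 3 days, 505 at 7 days and 4214 at 11 days in cotyledons, and 391 in euphyllas. The 11 day cotyledons stood far above the other 4 libraries. The value was 8.34-fold higher (7.58 to 9.19) than in 7 day cotyledons and 10.8-fold higher (9.65 to 12.1) than in the euphyllas of the same age. Of all tested unigenes, 2.79% rose at least as much from 7 to 11 day cotyledons.

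*APS4* (AT5G43780), per kb of unigene the scarcest ATP sulfurylase gene in all libraries but 11 day cotyledons, had normalized values of 21.2 in seeds, 10.2 at 3 days, 25.2 at 7 days and 261 at 11 days in cotyledons, and 4.62 in euphyllas, from 30, 10, 24, 243 and 4 reads. Like *APS3* it was high only in 11 day cotyledons. The fold over 7 day cotyledons was 10.3 (6.78 to 16.4), and the fold over euphyllas was 56.4 with a wide interval (21.7 to 209), since it rests on the 4 reads there. The other 4 libraries could not be set apart from their neighbours in the order by counting error.

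*APS2* (AT1G19920), whose product in *Arabidopsis* can remain in the cytosol as well as enter plastids, had another course than *APS3*. Its normalized values were 355 in seeds, 695 at 3 days, 953 at 7 days and 259 at 11 days in cotyledons, and 373 in euphyllas. The lowest value thus came in 11 day cotyledons, where *APS3* and *APS4* were highest. *APS2* was called lower from 7 to 11 day cotyledons (3.67-fold, 3.18 to 4.25), and its 1.96-fold difference between seeds and 3 day cotyledons (1.74 to 2.20) lay just under the limit.

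Since levels of different genes can be compared only per length, the share of each gene in its enzyme was taken from normalized values per kb of unigene. *APS1* held 72.9% of the ATP sulfurylase level in seeds, 64.3% at 3 days, 76.7% at 7 days and 44.0% at 11 days in cotyledons, and 59.0% in euphyllas. The share of *APS3* was 8.67% in seeds, 6.02% at 3 days, 6.97% at 7 days and 48.5% at 11 days in cotyledons, and 18.9% in euphyllas. In 11 day cotyledons *APS3* and *APS1* were therefore near parity, with a ratio per kb of 1.10 (1.06 to 1.15), while the ratio was 0.0908 (0.0828 to 0.0996) in 7 day cotyledons and 0.321 (0.284 to 0.361) in euphyllas. Both unigenes were longer than their *Arabidopsis* genes, and the ratio depends on those lengths.

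**Figure D2:**
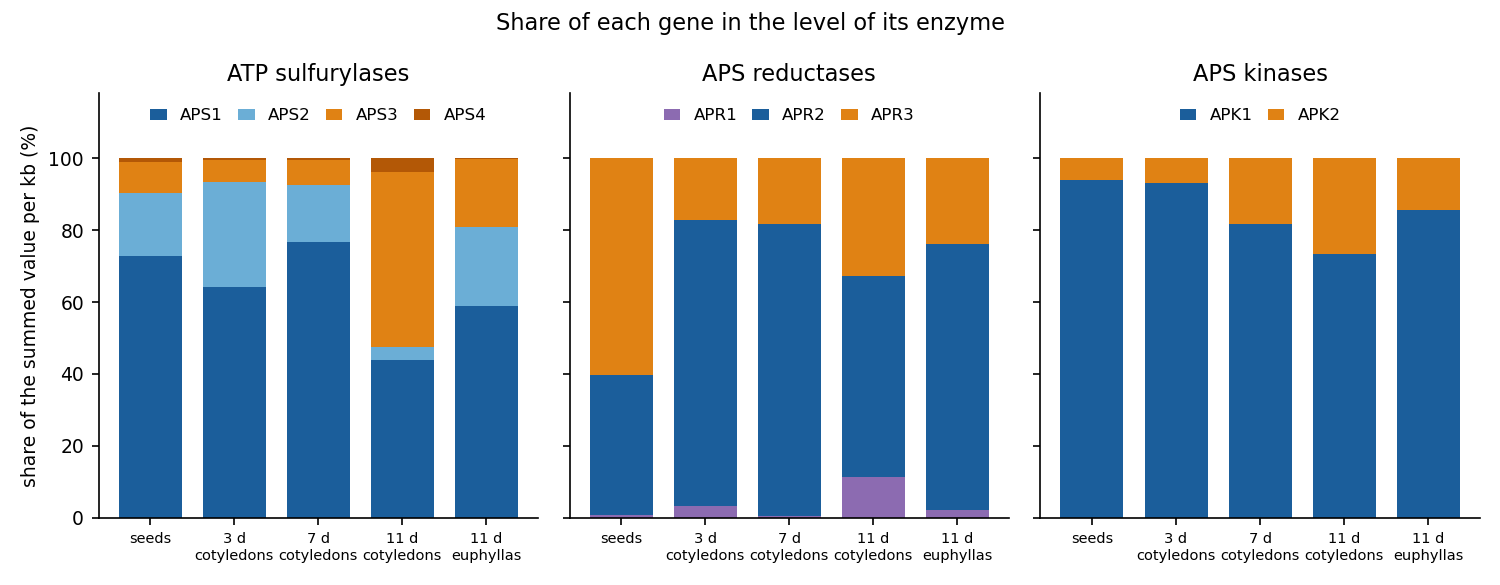
Share (%) of each gene in the summed normalized value per kb of its enzyme, as stacked bars for the 5 libraries. *APS3* held 48.5% of the ATP sulfurylase level in 11 day cotyledons, and *APR3* held 60.3% of the APS reductase level in seeds.

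*APR2* (AT1G62180), which encodes the major APS reductase of *Arabidopsis* leaves, had normalized values of 1257 in seeds, 1004 at 3 days, 5049 at 7 days and 549 at 11 days in cotyledons, and 1201 in euphyllas. It rose and fell again within the cotyledons. The gene was called higher from 3 to 7 day cotyledons (5.03-fold, 4.70 to 5.39), lower from 7 to 11 day cotyledons (9.20-fold, 8.40 to 10.1) and higher from 11 day cotyledons to euphyllas (2.19-fold, 1.97 to 2.44), and it was the only one of the 10 called higher at that last step. Of all tested unigenes, 2.55% fell at least as much from 7 to 11 day cotyledons. In 7 day cotyledons its normalized value per kb was 2924, above that of 98.8% of the unigenes with reads there. Seeds and euphyllas could not be set apart by counting error (1.05-fold, 0.970 to 1.13).

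*APR3* (AT4G21990) was the one gene of the set with its peak in seeds, with normalized values of 2716 in seeds, 301 at 3 days, 1575 at 7 days and 448 at 11 days in cotyledons, and 542 in euphyllas. Its fall from seeds to 3 day cotyledons was 9.02-fold (8.01 to 10.2), and 4.23% of the tested unigenes fell at least as much. From 3 to 7 day cotyledons it rose 5.23-fold (4.61 to 5.94), much as *APR2* did, and from 7 to 11 day cotyledons it fell 3.51-fold (3.15 to 3.93). All 5 libraries differed from their neighbours in the order by more than counting error.

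*APR1* (AT4G04610) encodes the third APS reductase and was scarce in all libraries, with normalized values of 34.7 in seeds, 58.0 at 3 days, 41.0 at 7 days and 155 at 11 days in cotyledons, and 47.4 in euphyllas, from 49, 57, 39, 145 and 41 reads. It was highest where *APR2* was lowest. *APR1* was called higher from 7 to 11 day cotyledons (3.79-fold, 2.65 to 5.55) and lower from 11 day cotyledons to euphyllas (3.28-fold, 2.31 to 4.76). No neighbours in the order among the other 4 libraries could be set apart by counting error.

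The make-up of APS reductase differed between seeds and 3 day cotyledons. Per kb, *APR3* held 60.3% of the summed level in seeds and 17.1% in 3 day cotyledons, and *APR2* held 39.0% and 79.6%. The ratio of *APR3* to *APR2* was 1.55 (1.46 to 1.64) in seeds and 0.215 (0.189 to 0.245) in 3 day cotyledons. In older cotyledons it was 0.223 at 7 days and 0.585 at 11 days, and in euphyllas it was 0.323, so that *APR2* led in every library but seeds. *APR1* reached its largest share, 11.3%, in 11 day cotyledons, where the summed level of the 3 genes was lowest.

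*SIR* (AT5G04590), the only sulfite reductase gene of *Arabidopsis*, had the narrowest range of the 10 genes. Its normalized values were 883 in seeds, 1150 at 3 days, 2566 at 7 days and 2214 at 11 days in cotyledons, and 1382 in euphyllas. The highest was 2.91-fold (2.71 to 3.11) above the lowest, against between 3.67-fold (*APS2*) and 56.4-fold (*APS4*) for the other 9. *SIR* was called only from 3 to 7 day cotyledons (2.23-fold higher, 2.08 to 2.40) among the 4 steps of age and tissue.

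*APK1* (AT2G14750), which encodes a plastid APS kinase, had normalized values of 181 in seeds, 192 at 3 days, 570 at 7 days and 747 at 11 days in cotyledons, and 185 in euphyllas. Seeds, 3 day cotyledons and euphyllas lay together within counting error of their neighbours in the order, and the older cotyledons lay above them. *APK1* was called higher from 3 to 7 day cotyledons (2.97-fold, 2.51 to 3.52) and lower from 11 day cotyledons to euphyllas (4.04-fold, 3.40 to 4.83).

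*APK2* (AT4G39940), which in *Arabidopsis* overlaps in function with *APK1*, followed it from a lower base, with normalized values of 13.4 in seeds, 16.3 at 3 days, 148 at 7 days and 311 at 11 days in cotyledons, and 35.8 in euphyllas, from 19, 16, 141, 290 and 31 reads. It was called at each step within and out of the older cotyledons. The value rose 9.10-fold (5.41 to 16.4) from 3 to 7 day cotyledons and 2.1-fold (1.71 to 2.59) from 7 to 11 day cotyledons, and fell 8.68-fold (5.98 to 13.0) to euphyllas. Its share of the APS kinase level per kb was 6.06% in seeds, 6.85% at 3 days, 18.4% at 7 days and 26.6% at 11 days in cotyledons, and 14.4% in euphyllas.

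Summed per kb, the enzymes of the pathway moved apart between 7 and 11 day cotyledons. ATP sulfurylase had summed normalized values per kb of 847 in seeds, 983 at 3 days, 2484 at 7 days and 2976 at 11 days in cotyledons, and 707 in euphyllas. APS reductase had 1869, 730, 3594, 568 and 940 in the same order of libraries. APS reductase was thus lowest in the library in which ATP sulfurylase was highest. APS kinase, here the sum of *APK1* and *APK2* alone, had 140, 149, 506, 737 and 156, and sulfite reductase, with its single gene, had 346, 451, 1006, 868 and 542.

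The level of APS kinase relative to APS reductase, the 2 enzymes that compete for APS, does not depend on the scaling between libraries. The ratio per kb was 0.0747 (0.0662 to 0.0843) in seeds, 0.205 (0.177 to 0.237) at 3 days, 0.141 (0.130 to 0.152) at 7 days and 1.30 (1.19 to 1.42) at 11 days in cotyledons, and 0.166 (0.143 to 0.194) in euphyllas. The summed APS kinase level exceeded that of APS reductase in 11 day cotyledons only. Not divided by length the ratio there was 0.918 (0.842 to 1.0), still the highest of the 5. Reads of *APR2* carried much of the difference, and without *APR2* the ratio in cotyledons was 1.0 at 3 days, 0.756 at 7 days and 2.95 at 11 days.

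The ratio of ATP sulfurylase to APS reductase followed the same course, with 0.453 in seeds, 1.35 at 3 days, 0.691 at 7 days and 5.24 (4.92 to 5.59) at 11 days in cotyledons, and 0.753 in euphyllas. APS reductase relative to sulfite reductase was 5.40 in seeds, 1.62 at 3 days, 3.57 at 7 days and 0.654 (0.607 to 0.705) at 11 days in cotyledons, and 1.73 in euphyllas. These ratios share the APS reductase level, which fell 6.33-fold from 7 to 11 day cotyledons. The plot of ratios within each library shows that 11 day cotyledons stood apart in all 3.

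**Figure D3:**
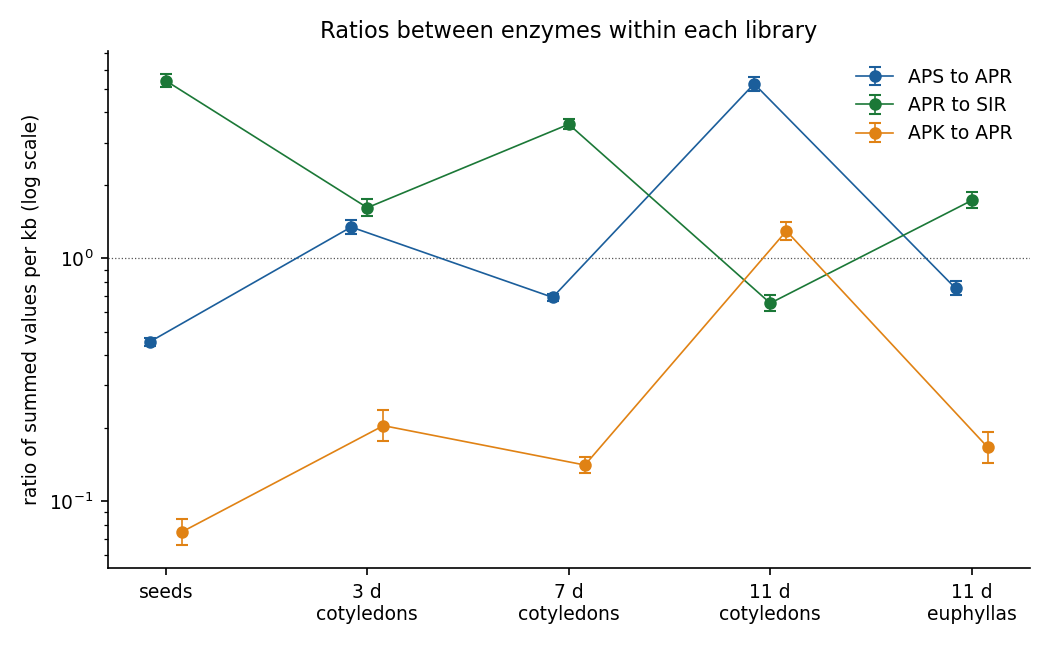
Ratio (log axis) of the summed normalized values per kb of ATP sulfurylase to APS reductase (APS to APR), APS reductase to sulfite reductase (APR to SIR) and APS kinase to APS reductase (APK to APR) in the 5 libraries, with 95% intervals for counting error. In 11 day cotyledons the ratios were 5.24, 0.654 and 1.30, and the dotted line marks a ratio of 1.

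Of the 4 steps, the first, from whole germinated seeds to cotyledons, had the fewest calls in the set. From seeds to 3 day cotyledons 0 of the 10 genes were called higher and 1, *APR3*, lower, while 22.1% of all tested unigenes were called higher and 22.5% lower. The median log2 ratio of the 10 was 0.06, against -0.10 over all tested unigenes, and with total reads it was -0.17, against -0.34. *APS4* had a 2.09-fold lower value in 3 day cotyledons, with an interval (0.993 to 4.79) that includes 1.

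From 3 to 7 day cotyledons 8 of the 10 genes were called higher and 0 lower, against 23.3% and 15.4% of all tested unigenes. The step took in every enzyme of the pathway. The folds of the 8 ran from 2.23 (*SIR*) to 9.10 (*APK2*), and the median log2 ratio of the 10 was 1.55, against 0.04 over all tested unigenes. The 2 genes not called were *APS2* (1.37-fold higher, 1.24 to 1.52) and *APR1* (1.42-fold lower, 0.925 to 2.18). With libraries scaled by total reads, which set the median over all unigenes at -0.39, the call was lost for *SIR* and for *APS4*, whose call rests on 10 and 24 reads.

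From 7 to 11 day cotyledons 4 genes were called higher (*APS3*, *APS4*, *APR1* and *APK2*) and 3 lower (*APS2*, *APR2* and *APR3*), against 19.4% and 18.4% of all tested unigenes. The genes of ATP sulfurylase and those of APS reductase each split in direction. The folds upward ran from 2.1 to 10.3 and those downward from 3.51 to 9.20, and the median log2 ratio of the 10 was 0.09, against -0.01 over all tested unigenes. *APS1*, *SIR* and *APK1* were not called, with values 1.46-fold lower, 1.16-fold lower and 1.31-fold higher.

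In the euphyllas of 11 day sprouts 1 gene, *APR2*, was called higher than in cotyledons of the same age and 6 were called lower (*APS1*, *APS3*, *APS4*, *APR1*, *APK1* and *APK2*), against 21.0% and 26.3% of all tested unigenes. The median log2 ratio of the 10 was -1.67, against -0.10 over all tested unigenes. This step shares the 11 day cotyledons with the one before, so that the 4 genes called higher there and lower here rest on the same high library. Against 7 day cotyledons, euphyllas had 0 genes called higher and 7 lower, with 11.6% and 17.2% of all tested unigenes called, and against 3 day cotyledons 2 called higher and 0 lower of 9 tested, with 14.9% and 10.2% called.

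**Figure D4:**
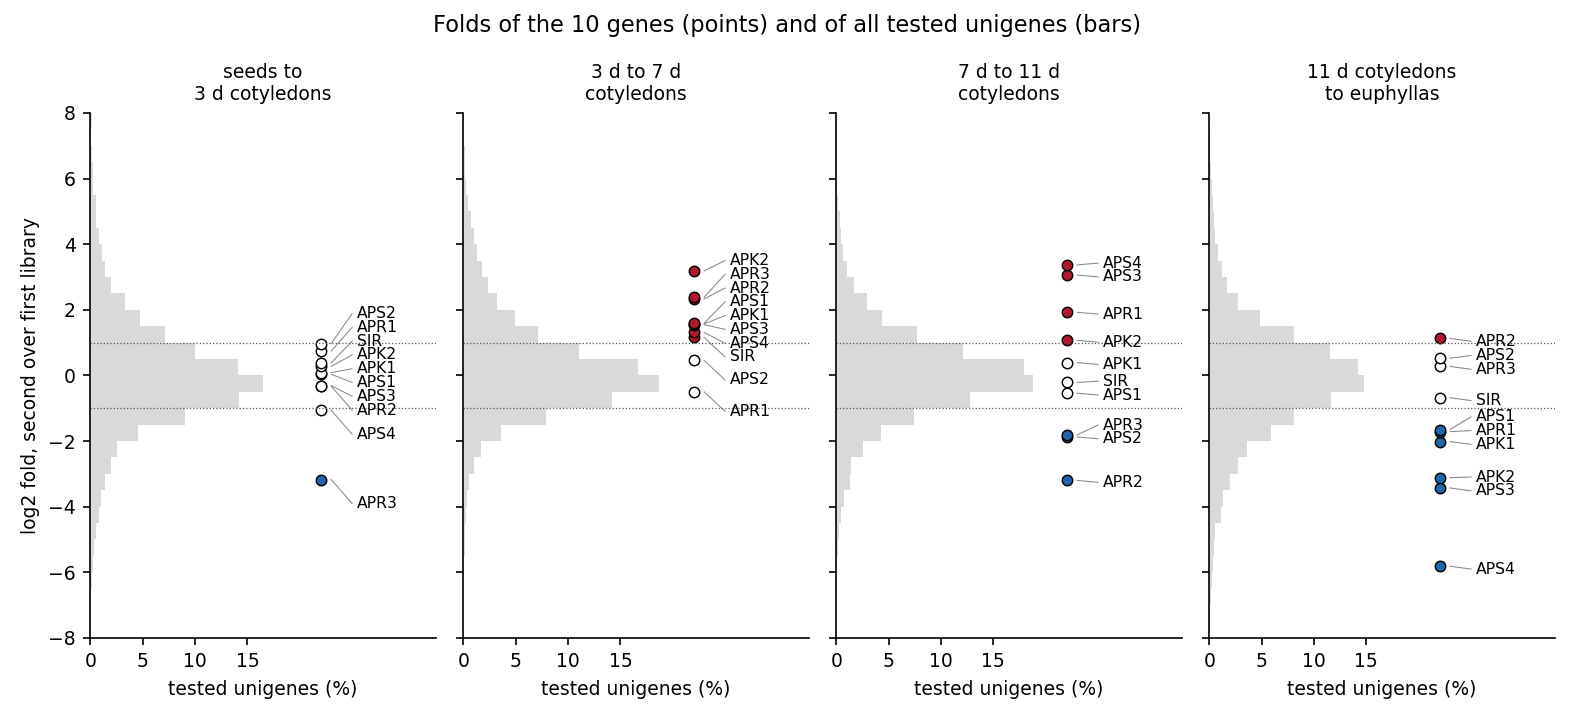
Log2 fold of the second over the first library at the 4 steps for the 10 genes (points, red called higher, blue called lower, white not called) beside the share (%) of all tested unigenes in bins of 0.5 (grey bars, with larger folds in the end bins), with dotted lines at a 2-fold difference. From 3 to 7 day cotyledons 8 points lie above the upper line, and from 7 to 11 day cotyledons 4 lie above it and 3 below the lower line.

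Over the other pairs, 7 genes were called higher in 7 day cotyledons than in seeds and 0 lower (29.0% and 25.9% of all tested unigenes), and in 11 day cotyledons 7 were called higher than in seeds and 2 lower (30.9% and 28.0%). The 2 lower were *APR2* and *APR3*. From 3 to 11 day cotyledons 6 were called higher and 1, *APS2*, lower (28.9% and 24.4%), with *APS4* 25.6-fold and *APS3* 24.4-fold higher. Between seeds and euphyllas, 1 was called higher in euphyllas, *APK2*, and 2 lower, *APR3* and *APS4* (25.6% and 24.4%).

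Profiles were compared by the root mean square difference of log2(value + 1) over the 5 libraries, each profile centred on its mean. The closest of the 45 pairs were *APS1* and *APK1* (0.385), *SIR* and *APK1* (0.444) and *APS1* and *SIR* (0.462), which catalyse different steps. Of the pairs within an enzyme the closest was *APS1* and *APS2* (0.856). The difference was 0.914 for *APK1* and *APK2*, 0.955 for *APS3* and *APS4*, 1.06 for *APR2* and *APR3*, 1.38 for *APS1* and *APS3* and 1.65 for *APR1* and *APR2*. The farthest pair was *APS4* and *APR2* (2.44). With 5 libraries these numbers describe the profiles and nothing more.

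Clock genes, chosen after values were seen, differed widely between the same libraries. *LHY*, a clock gene with its peak near dawn, had normalized values of 507 in seeds and of 7.12 at 3 days, 2690 at 7 days and 76.1 at 11 days in cotyledons, with 0 reads in euphyllas. *TOC1*, which peaks in the evening, had 221 in seeds, 1167 at 3 days, 0 reads at 7 days and 467 at 11 days in cotyledons, and 990 in euphyllas. The 7 day cotyledons, in which 4 of the 10 genes including *APR2* had their peak, were thus the library with the most *LHY* reads and 0 of *TOC1*. In *Arabidopsis* the *APR* genes are known to cycle over the day. The part of the hour of harvest in these results was not tested.

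Genes of jasmonate synthesis, also chosen after values were seen, moved with the 11 day cotyledons. The wound hormone jasmonate is known in *Arabidopsis* to raise transcripts of sulfate assimilation and glutathione synthesis. The 4 genes *LOX2*, *AOS*, *AOC2* and *OPR3* summed to a normalized value of 617 in seeds, 1679 at 3 days, 3407 at 7 days and 36996 at 11 days in cotyledons, and 3654 in euphyllas. *AOS*, the allene oxide synthase, reached 24458 in 11 day cotyledons against 1847 in 7 day cotyledons. *APS3*, *APS4*, *APR1*, *APK1* and *APK2* had their peak in the same library, while *APR2* had its lowest value there, and the part of jasmonate in either was not tested.

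The neighbouring steps of the pathway were followed with gene lists written from *Arabidopsis*. For comparison, 22.1% of all tested unigenes were called higher and 22.5% lower from seeds to 3 day cotyledons. The shares were 23.3% and 15.4% from 3 to 7 day cotyledons and 19.4% and 18.4% from 7 to 11 day cotyledons. In euphyllas against 11 day cotyledons they were 21.0% and 26.3%. The lists are short, and several of their counts lie near these shares. Cysteine and glutathione synthesis, with 8 of 10 genes tested, had 4 called higher and 0 lower from 3 to 7 day cotyledons, 3 higher and 0 lower from 7 to 11 day cotyledons, and 0 higher and 5 lower in euphyllas. *SERAT2;1*, a serine acetyltransferase that makes the carbon skeleton for cysteine, had values of 112 in seeds, 58.0 at 3 days, 850 at 7 days and 718 at 11 days in cotyledons, and 332 in euphyllas. *GSH2*, the glutathione synthetase, had 836, 356, 952, 6769 and 697 in the same order. It shared its high library with *APS3*, rising 7.11-fold (6.63 to 7.63) from 7 to 11 day cotyledons and falling in euphyllas. *GSH1*, which encodes the enzyme before it, had 4680, 1963, 1898, 5791 and 1454, high in both seeds and 11 day cotyledons. At the first step 1 gene of the list was called higher and 3 lower.

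Further genes that make, move, use or recycle PAPS, with 9 of 10 genes tested, had 0 called higher and 4 lower from seeds to 3 day cotyledons, 4 and 1 from 3 to 7 day cotyledons, 4 and 1 from 7 to 11 day cotyledons and 0 and 5 in euphyllas. The desulfoglucosinolate sulfotransferases, which take the sulfate of PAPS onto glucosinolates, were among them. *SOT16*, which acts mainly on indolic glucosinolates, had normalized values of 1094 in seeds, 450 at 3 days, 2089 at 7 days and 5762 at 11 days in cotyledons, and 2274 in euphyllas. *SOT17*, which acts on aliphatic ones, had 236, 49.8, 307, 1628 and 117. Both had their peak in 11 day cotyledons, as *APK1* and *APK2* did. On the same list *SAL1* (1301), *SOT18* (164) and *AHL* (194) peaked there too. *SOT16* is not among the glucosinolate genes that the authors list. *SOT12*, a sulfotransferase of salicylate and other small molecules, differed, with 459 in 7 day cotyledons and a fall of 3.45-fold (2.82 to 4.25) to 11 day cotyledons. The transporter *PAPST1* was highest in seeds, with 163, 68.1, 45.2, 84.7 and 17.3 in the order of libraries. *TPST*, also of this list, was highest in seeds too, with 230, 85.4, 65.1, 83.6 and 109. The list also held the APS kinase genes *APK3* and *APK4*, which are outside the set of 10. *APK4* had no unigene. *APK3* was scarce, with its highest value, 23.1, in 7 day cotyledons, and its call there rests on 8 and 22 reads.

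Sulfite reductase needs siroheme and ferredoxin. Of 6 genes for their supply, with nitrite reductase counted among them as the other siroheme enzyme, 0 were called higher and 4 lower from seeds to 3 day cotyledons, 3 and 0 from 3 to 7 day cotyledons, 2 and 1 from 7 to 11 day cotyledons and 0 and 3 in euphyllas. *FD3*, a ferredoxin of non-photosynthetic tissue, had normalized values of 1886 in seeds, 270 at 3 days, 346 at 7 days and 697 at 11 days in cotyledons, and 191 in euphyllas. *UPM1*, which starts siroheme synthesis, had 492, 162, 558, 1222 and 362. *NIR1*, the nitrite reductase, had 1260, 2446, 9637, 4196 and 2487, with a peak in 7 day cotyledons like *SIR*, and it rose 3.94-fold (3.77 to 4.12) from 3 to 7 day cotyledons.

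Sulfate transporters had 8 of 9 tested genes called higher and 0 lower from 3 to 7 day cotyledons, the step at which 8 of the 10 assimilation genes rose. The call of *SULTR3;4* rests on 3 and 27 reads and that of *SULTR4;2* on 4 and 24. *SULTR4;1* lay just above the limit (2.02-fold, 1.58 to 2.58). *SULTR2;1*, a transporter of vascular tissue, rose 13.0-fold (9.47 to 18.4), from a normalized value of 41.7 to 543, and fell 5.01-fold (4.04 to 6.27) in 11 day cotyledons. At that next step 1 transporter was called higher and 6 lower. Of the lower, *SULTR3;1*, *SULTR3;4* and *SULTR4;2* were scarce, with 48 and 14, 27 and 11, and 24 and 2 reads. From seeds to 3 day cotyledons 5 were called higher and 3 lower, and in euphyllas 2 higher and 4 lower of 7 tested. *SULTR3;2* alone was called higher from 7 to 11 day cotyledons, at 3.94-fold (3.28 to 4.76). *SULTR3;3*, the transporter with the most reads at both ages, was not called at that step (1.08-fold lower, 0.990 to 1.18). The summed normalized value of the 10 transporters with a unigene was 2644 in 7 day and 2277 in 11 day cotyledons.

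Of the 8 genes on a list of those known to respond to a lack of sulfur, 5 had a unigene and 4 were tested. At the first step 0 were called. At each of the next 2 steps 1 was called lower, and in euphyllas 1 higher, each time *SHM7*, a serine hydroxymethyltransferase gene. Its values were 40.3 in seeds, 61.0 at 3 days, 24.2 at 7 days and 9.65 at 11 days in cotyledons, and 40.4 in euphyllas. They come from 57, 60, 23, 9 and 35 reads, and the fall from 7 to 11 day cotyledons (2.50-fold) has a wide interval (1.12 to 6.15). The markers *LSU1*, *LSU3* and *BGLU28* had no unigene.

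Among the regulators of the pathway, 6 of 8 had a unigene. *HY5*, a light-response factor that in *Arabidopsis* binds *APR* promoters, had normalized values of 450 in seeds, 410 at 3 days, 114 at 7 days and 19.3 at 11 days in cotyledons, and 74.0 in euphyllas. It was called lower from 3 to 7 day cotyledons (3.58-fold, 2.89 to 4.47), the step at which *APR2* and *APR3* were called higher, and lower again to 11 day cotyledons. *MYB28*, a factor of aliphatic glucosinolate synthesis, had 2.12, 107, 102, 4.29 and 107, nearly without reads (3 and 4) in seeds and 11 day cotyledons. *MYB29*, another such factor, had 6.10 at 3 days, 52.5 at 7 days and 6.93 in euphyllas, with 0 reads in seeds and 11 day cotyledons. Of the MYB factors of glucosinolate synthesis, the authors detected only *MYB29* and *MYB51* under their limit of sequence identity. *MYB51*, which promotes indolic glucosinolates, had 90.6, 18.3, 56.7, 132 and 33.5, with its highest value in the library in which the APS kinases peaked. Over the 4 steps 1 and 1, 3 and 1, 1 and 3, and 2 and 2 regulators were called higher and lower. The numbers tested were 5, 6, 6 and 5.

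Methionine synthesis, which uses cysteine, had 5 genes tested, of which 1 was called higher and 0 lower from seeds to 3 day cotyledons, 2 and 1 from 3 to 7 day cotyledons, 0 and 1 from 7 to 11 day cotyledons and 1 and 1 in euphyllas. *CGS1*, the cystathionine synthase that commits carbon and sulfur to methionine, had 1689 in seeds, 2409 at 3 days, 6739 at 7 days and 4210 at 11 days in cotyledons, and 2442 in euphyllas. It thus peaked in 7 day cotyledons, as *APS1*, *APR2* and *SIR* did. Of the other genes on the list, *MS1* and *MS2* peaked there too, while *CBL* (235) and *MS3* (182) were highest in 3 day cotyledons. The plot of list medians sets these lists beside the 10 genes.

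**Figure D5:**
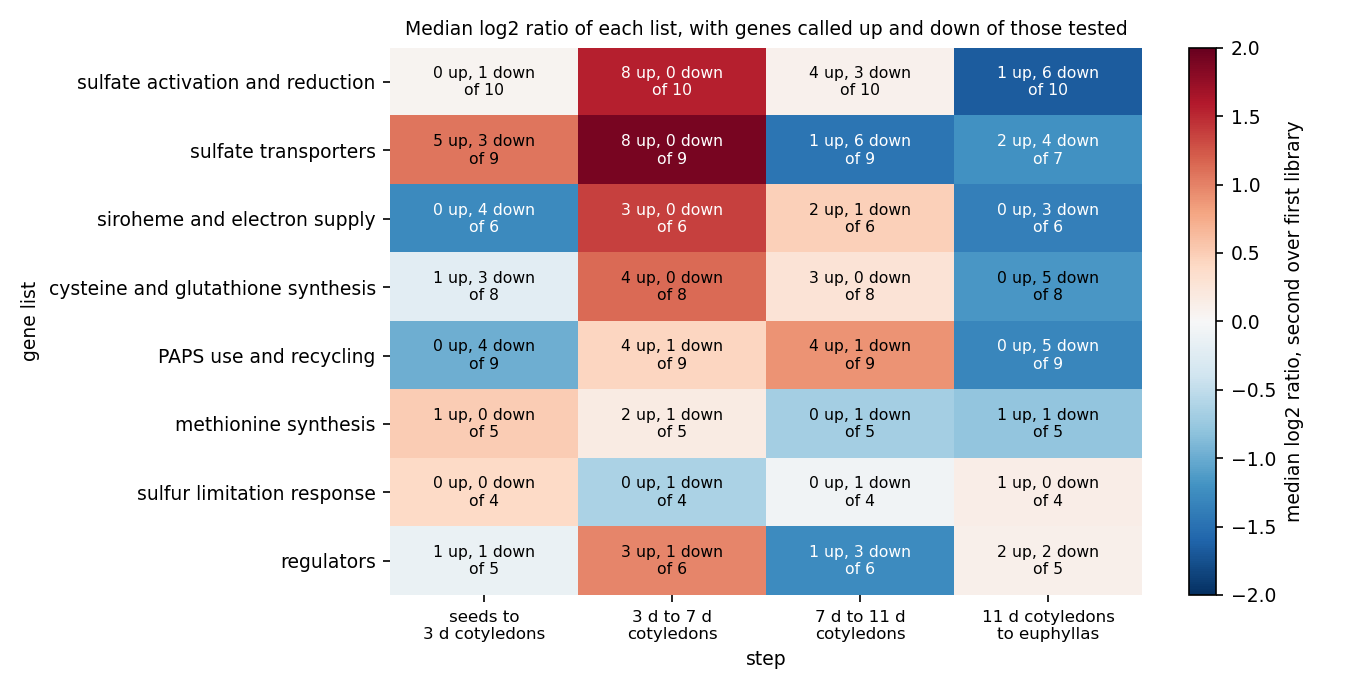
Median log2 ratio (colour, red higher and blue lower in the second library) of the 10 sulfate activation and reduction genes and of the 7 other lists at the 4 steps, with the number of genes called higher (up) and lower (down) of those tested in each cell. From 3 to 7 day cotyledons the median of the 10 genes was 1.55 and that of the sulfate transporters 1.90, and in euphyllas the 10 genes had a median of -1.67.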

How the data were processed

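Total RNA of 5 tissues, each a pool of 3 biological replicates, was sequenced on the Illumina MiSeq as poly(A) libraries. The authors assembled all reads *de novo*, matched the transcripts to *Arabidopsis*, mapped the reads with Bowtie and scaled them with DESeq, with no versions given in the sources used here. Values came from 10 deposited tables, 1 for each pair of libraries. The deposited counts are raw reads per unigene, and the normalized signal is what the authors obtained from a count and the size factor of its library, which was the same in all tables. The 20 RPKM columns and the authors' columns of log2 ratios, p-values and FDR were not used. Folds and calls were computed in Python 3.11.15 with SciPy 1.17.1. Fold intervals are exact conditional binomial (Clopper-Pearson) at 95%, those of ratios within a library come from the delta method, and medians are of log2(value + 1). Intervals cover counting error only. In each library the counted reads exceeded the trimmed read pairs that the authors list, so that some pairs were counted more than once. The intervals are therefore too narrow. A library with 0 reads was set to a floor of 3 reads. The call rule was tried on simulated counts with Poisson error only, with 4-fold changes planted in unigenes that were not scarce. The simulation holds no spread between plants and does not cover 2-fold changes or scarce genes.

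The 10 genes and the 7 other lists were chosen with earlier results of these data known, and the clock and jasmonate genes after their values were seen. Besides the 10 genes, most genes named from a list were among its 3 called genes with the most reads at a step. Not every gene that met this rule is described, and *SERAT1;1*, *RFNR2*, *SULTR3;5* and *MYB34*, among others, were left out. The named genes are therefore examples and do not stand for their lists. Alternatives were scaling by total reads or by TMM factors of edgeR 4.0.16, a 4-fold limit, a 99% interval, counts divided by 2, a minimum of 100 reads or of 1 read, a pseudocount of 10, summing of unigenes that share a match, and, for the ratio of APS kinase to APS reductase, no division by length and leaving out *APR2*. Each tissue was 1 library and replicates could not be left out.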

Additional observations from a re-analysis of the deposited data

How the results depend on the processing

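No paired analysis was possible because each tissue was 1 library and carried no replicate number. Over the alternatives tried, 300 of 320 folds of the 10 genes kept their side of the call rule, 17 lost the call, mostly under the 4-fold limit, and 3 gained it. The 300 include all folds under 2 alternatives that could change nothing. These were the summing of unigenes that share a match, as no match was shared, and the minimum of 1 read, as all 10 genes were already tested. Only scaling by total reads or by TMM factors could turn a direction. No called fold turned in direction, and 2 folds that were not called did with total reads from seeds to 3 day cotyledons (*APS1*, 1.02 to 0.870, and *APK1*, 1.06 to 0.901). From seeds to 3 day cotyledons the count called went from 1 to 2 with total reads (*APS4*, 0.407 of its value in seeds) and to 2 with TMM factors (*APS2*, 2.07-fold). With a 4-fold limit the counts at the other steps went from 8 to 3, from 7 to 3 and from 7 to 4. With total reads the median log2 ratio of the 10 genes went from 0.06 to -0.17 from seeds to 3 day cotyledons, from 1.55 to 1.11 from 3 to 7 day cotyledons and from -1.67 to -1.18 in euphyllas, as the median over all unigenes went to -0.34, -0.39 and 0.38, and *APS2* was then called higher in euphyllas (2.02-fold). The call of *APS4* from 3 to 7 day cotyledons was lost with total reads, a 99% interval, counts divided by 2 and a minimum of 100 reads. Not divided by length, the ratio of APS kinase to APS reductase was 0.0486 in seeds, 0.153 at 3 days, 0.108 at 7 days and 0.918 at 11 days in cotyledons, and 0.123 in euphyllas, and without *APR2* it was 0.122, 1.0, 0.756, 2.95 and 0.640. It was highest in 11 day cotyledons each time. Depth limits *APS4*, *APR1* and *APK2*, which had under 60 reads in 4, 4 and 3 libraries.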

Other observations

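In the deposited annotation the symbol cells of *APR1*, *APR2* and *APR3* hold the numbers 41365, 41366 and 41367 in place of names. Read as days of a spreadsheet calendar these are 1, 2 and 3 April 2013. The symbol cells of 9 unigenes in all hold such numbers, and the other 6 fall in September or October of that year. A search of the annotation by symbol therefore misses all 3 APS reductases, which were found here by their *Arabidopsis* locus. The genes that follow were chosen after their values were seen. *OASB*, the plastid cysteine synthase, had a unigene of 207 bp with 0 reads in all 5 libraries, while *OASA1* and *OASC*, the cytosolic and mitochondrial forms, had between 1716 and 4089 reads in each. The unigene of *SULTR1;1*, a root uptake transporter, had 37 reads in seeds and 0 in the other 4 libraries.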
